A study of Homo sapiens with 4 samples.

Results

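The family of miR-148 and miR-152 consists of the mature microRNAs (miRNAs) cut from the hairpins miR-148a, miR-148b and miR-152. Its members were taken by name, as every row of the count table whose name without arm is one of these 3, which gave 6 of 826 rows. They are hsa-miR-148a-3p, hsa-miR-148b-3p and hsa-miR-152-3p from the 3p arms and hsa-miR-148a-5p, hsa-miR-148b-5p and hsa-miR-152-5p from the 5p arms. The family was chosen by a measured value, the rise of miR-148a-5p between the treatments compared here, so its fold changes and arm shares are a description. Intervals beside them show error only, and no test is used to support them. The libraries are from H661, an established human cell line derived from a large cell carcinoma of the lung. One group received entinostat at 2.5 µM, a benzamide compound that inhibits class I histone deacetylases, and the other received the solvent dimethyl sulfoxide (DMSO). Each group had 2 libraries and 8 h of exposure, and RPMI1640 medium with fetal bovine serum was used throughout. The whole study therefore rests on 1 cell line, and the labels do not say whether the libraries of a group came from separate cultures.

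A miRNA hairpin is cut by Drosha in the nucleus and by Dicer in the cytoplasm into a short duplex of a 5p and a 3p strand. One strand is kept in Argonaute and guides it to messenger RNAs, mostly by pairing of the seed, bases 2 to 8 of the strand, while the other is usually degraded. In this family the 3p strands are the usual guides. Known targets of these guides include the DNA methyltransferase DNMT1, and miR-148a-3p also targets the low density lipoprotein receptor in liver. Loss of miR-148a and miR-152 through DNA methylation has been described in several tumours. Histone deacetylases remove acetyl groups from histones, and their inhibition changes the transcription of many genes.

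The mature sequences of 5 of the 6 members were read from RefSeq (GRCh38.p14) and are shown because the 3p strands share 1 seed while the 5p strands do not. Capitals mark bases 2 to 8.
miR-148a-3p: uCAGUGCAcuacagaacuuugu
miR-148b-3p: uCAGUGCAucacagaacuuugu
miR-152-3p: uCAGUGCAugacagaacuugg
miR-148b-5p: aAGUUCUGuuauacacucaggc
miR-152-5p: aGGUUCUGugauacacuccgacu

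Positions below count from 1 at the 5′ end. From miR-148a-3p to miR-148b-3p, 20 of 22 bases are identical and the substitutions are C9U and U10C. From miR-148b-3p to miR-152-3p they are C10G and U20G, with 19 of 21 compared bases identical. All differences thus lie outside the seed. Among 2370 human mature miRNAs in the RefSeq table, the letters CAGUGCA fill bases 2 to 8 in 3, which are these 3 members. The same letters fill bases 1 to 7, 1 base earlier, in 5 others, among them miR-130b-3p, miR-301a-3p and miR-301b-3p. They occur anywhere in 14 mature miRNAs (0.591%). The RefSeq table is incomplete, since it held 5 of the 6 members and lacked miR-148a-5p, so these counts may be too low. The rule the authors used for reads that fit near-identical miRNAs is not given in the sources used here, so the 3p members are uncertain singly, and their sum is given beside them.

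The hairpins come from 3 chromosomes and are shown because the ratio of their arms is followed below. Capitals mark the 3p strand.
miR-148a: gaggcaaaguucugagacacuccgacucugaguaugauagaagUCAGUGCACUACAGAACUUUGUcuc
miR-148b: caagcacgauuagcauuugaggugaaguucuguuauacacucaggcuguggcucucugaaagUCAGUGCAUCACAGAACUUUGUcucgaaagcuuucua
miR-152: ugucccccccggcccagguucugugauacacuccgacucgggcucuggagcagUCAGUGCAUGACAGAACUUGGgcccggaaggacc

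The miR-148a hairpin lies at chr7:25949919-25949986 on the minus strand (GRCh38), in no other annotated gene of GENCODE release 29. The nearest protein-coding gene, NFE2L3, is 202254 bases away. The miR-148b hairpin lies at chr12:54337216-54337314 on the plus strand, in an intron of COPZ1 and of the overlapping transcript AC078778.2. The miR-152 hairpin lies at chr17:48037161-48037247 on the minus strand, in an intron of COPZ2. COPZ1 and COPZ2 encode alternative forms of the zeta subunit of the COPI vesicle coat, so the hairpins of miR-148b and miR-152 sit in related host genes, each on the host's own strand. In the minimum free energy fold that RNAfold predicts, 19 of 22 bases of the 3p strand are paired in miR-148a, 20 of 22 in miR-148b and 19 of 21 in miR-152. Base 7 of the 3p strand, within the seed, is unpaired in all 3 predicted folds.

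The table held 547875 and 753104 counts in the entinostat libraries and 938559 and 561485 in the DMSO libraries. A level is a count divided by the library total over the rows that passed a filter on low counts. It is scaled with TMM factors (trimmed mean of M-values) and given per 1e+06 (CPM). Blood, liver, muscle, mesenchymal and epithelial marker miRNAs summed to at most 241.2 CPM for any such list in any library, and blood markers were represented by miR-486-5p alone. Of 5 mesenchymal names 4 were listed, and their summed level was 112.3 and 110.7 CPM with entinostat and 70.6 and 90.8 CPM with DMSO. Of 5 epithelial names 4 were listed, and their summed level was 77.3 and 59.3 CPM with entinostat and 56.7 and 41.0 CPM with DMSO. Both sums were higher in both entinostat libraries, as were 20.7% of single tested miRNAs, miR-148a-5p among them. The members did not all run alike. Of the 2 mesenchymal members tested, miR-143-3p overlapped between the treatments, and miR-145-5p (log2 fold change 1.40) had 4 to 26 counts a library. Of the 2 epithelial members tested, miR-200c-3p had a log2 fold change of 0.57 and miR-203a-3p one of -0.46. The liver miRNA miR-122-5p had 0 and 0 counts with entinostat and 5 and 0 with DMSO. The neuroendocrine list, which is mostly miR-7-5p, summed to 11465 and 8562 CPM with entinostat and to 10140 and 11161 CPM with DMSO. Their part in the results below was not tested.

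The 3p guides made up nearly the whole family in H661 cells, and miR-148b-3p was the most abundant of them in every library. The level of miR-148b-3p, the guide from the COPZ1 intron, was 7018 and 7095 CPM with entinostat and 6688 and 6749 CPM with DMSO. The level of miR-148a-3p, the guide from the intergenic hairpin, was 1655 and 1517 CPM with entinostat and 1449 and 1589 CPM with DMSO. The level of miR-152-3p, the guide from the COPZ2 intron, was 583.5 and 577.4 CPM with entinostat and 556.5 and 618.1 CPM with DMSO. These 3 levels did not overlap in any library, so their order was miR-148b-3p, miR-148a-3p and miR-152-3p throughout. By mean level over the 4 libraries they ranked 27, 77 and 129 among the 826 rows. Each read stands for 1 mature strand of nearly equal length, so no length scaling was applied, but ligation of adapters can favour some sequences.

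The 5p strands were far rarer. The levels of miR-148a-5p and miR-152-5p did not overlap between the treatments. Of all rows that passed the filter on low counts, 40.6% likewise did not overlap, and miR-152-5p was not among those rows. The counts of miR-148a-5p were 70 and 95 with entinostat and 67 and 43 with DMSO, in libraries of different depth. That is a level of 128.8 and 125.2 CPM with entinostat and 71.7 and 76.6 CPM with DMSO. Both entinostat libraries lay above both DMSO libraries, and the libraries of each treatment were close together. The level of miR-148b-5p, the strand opposite the most abundant guide, was 58.9 and 69.9 CPM with entinostat and 61.0 and 85.5 CPM with DMSO, and the treatments overlapped. With DMSO the levels of miR-148a-5p and miR-148b-5p also overlapped each other, while with entinostat both libraries had more miR-148a-5p than either had miR-148b-5p. The strand miR-152-5p had 12 and 10 counts with entinostat and 10 and 0 with DMSO, a level of 22.1 and 13.2 CPM with entinostat and 10.7 and 0 CPM with DMSO. The count of 0 allowed up to 5.34 CPM in that DMSO library, so its treatments are separated by a few counts.

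**Figure D1:**
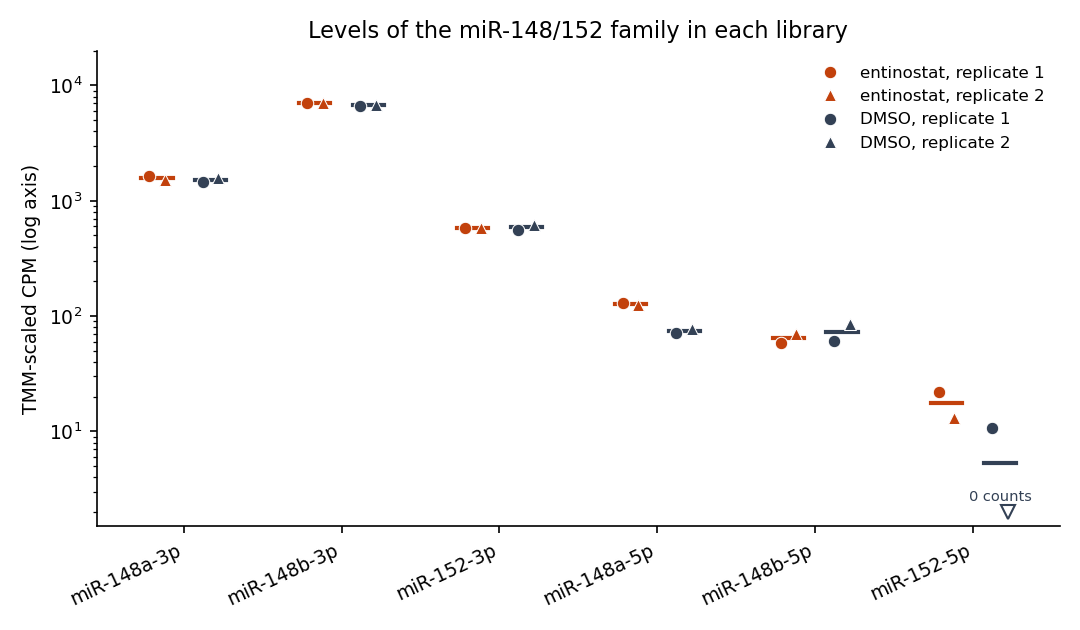
TMM-scaled CPM (log axis) of the 6 members in each library, entinostat left of DMSO for each miRNA, with replicates as circles and triangles and the group mean as a bar. The 3p strands lie between 556.5 and 7095 CPM and miR-148a-5p lies at 125.2 and 128.8 CPM with entinostat and at 71.7 and 76.6 CPM with DMSO, while the library with 0 counts of miR-152-5p is drawn as an open mark.

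Between the treatments, the guides kept close levels, while miR-148a-5p had the largest log2 fold change of the 5 members that passed the filter on low counts. The filter left 401 rows, and miR-152-5p was the member below it. For miR-148a-5p the mean was 127.0 ± 2.56 CPM with entinostat and 74.2 ± 3.46 CPM with DMSO (SD, n = 2), which gave a fitted fold of 1.72 with a 95% interval of 1.28 to 2.30. The log2 fold change was 0.78 with a standard error of 0.18, and it ran from 0.73 to 0.81 when 1 library at a time was left out. It ranked 7 from the top of the 401 rows. This is the value that drew attention to the family, so it supports nothing further.

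The guide from the same hairpin did not show a change of that size. The mean level of miR-148a-3p was 1586 ± 97.2 CPM with entinostat and 1519 ± 98.8 CPM with DMSO (SD, n = 2), and its log2 fold change was 0.06 with a 95% interval of -0.16 to 0.29. The means of this guide differed by less than the spread within each group. For miR-148b-3p the mean level was 7057 ± 54.0 CPM with entinostat and 6719 ± 43.2 CPM with DMSO (SD, n = 2). Here both entinostat libraries were above both DMSO libraries, but the log2 fold change was only 0.07, with a 95% interval of -0.10 to 0.24. For miR-152-3p the mean level was 580.4 ± 4.31 CPM with entinostat and 587.3 ± 43.5 CPM with DMSO (SD, n = 2), and its log2 fold change was -0.01 with an interval from -0.27 to 0.24. For miR-148b-5p the mean level was 64.4 ± 7.75 CPM with entinostat and 73.3 ± 17.3 CPM with DMSO (SD, n = 2), and its log2 fold change was -0.13 with an interval from -0.71 to 0.44. Single libraries or the scaling set the sign for 3 of these 4 members. The log2 fold change of miR-148a-3p was -0.00314 without DMSO replicate 1, that of miR-148b-5p was 0.0824 without DMSO replicate 2, and that of miR-152-3p was 0.0527 without DMSO replicate 2 and 0.0999 with upper quartile factors. For miR-148b-3p it stayed above 0 in all 17 alternative fits.

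**Figure D2:**
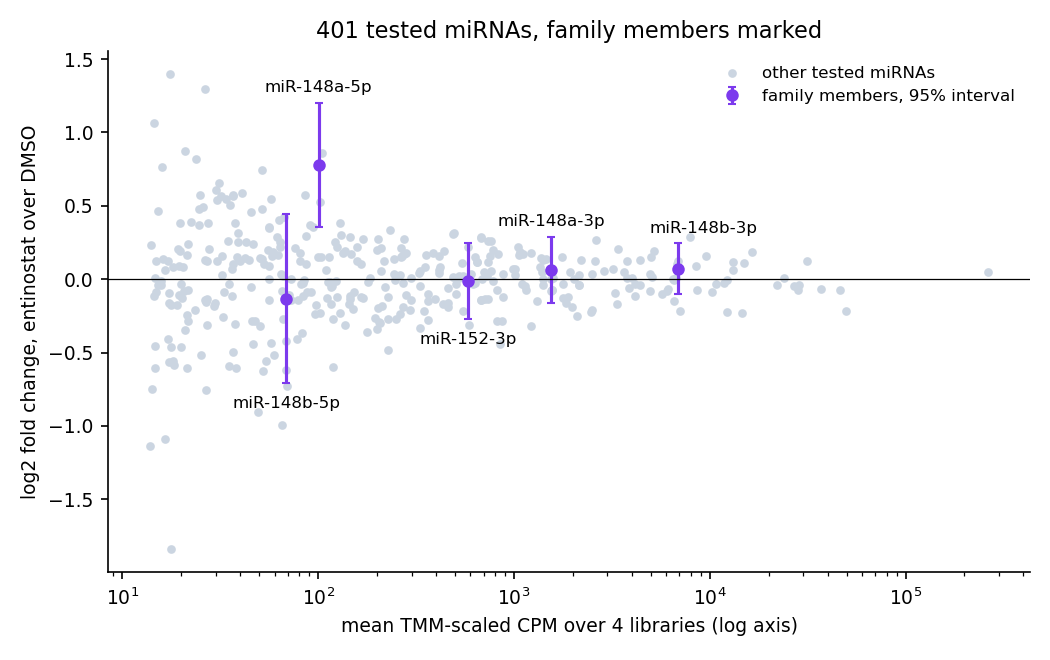
Log2 fold change of entinostat over DMSO against the mean TMM-scaled CPM over 4 libraries (log axis) for 401 tested miRNAs in grey, with 5 family members in purple and their 95% intervals from the edgeR fit. The intervals show error only and are not a test. That of miR-148a-5p, which was chosen on this contrast, runs from 0.36 to 1.20, and no member was called by the main test.

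No miRNA of the table was called by the main test, and that includes the family. The edgeR quasi-likelihood test with Benjamini-Hochberg adjustment called 0 of 401 rows (0%), 0 of them among the 5 tested members, and gave 27 rows at an unadjusted p under 0.05. DESeq2 also called 0 rows, with 11 at an unadjusted p under 0.05. The edgeR likelihood ratio test, which does not allow for uncertainty in the spread, called 4 rows (0.998%). The log2 fold change was above 0 in 3 and below 0 in 2 of the 5 members tested (median 0.06), and above 0 in 208 and below 0 in 193 of all 401 rows (median 0.00466). Both entinostat libraries lay above both DMSO libraries for 2 of the 5 tested members, and for 20.7% of all tested rows. They lay below both DMSO libraries for 0 members and for 20% of tested rows, so that 40.6% of rows did not overlap in either direction. Nothing is read from these counts for the members, since the contrast also chose them.

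Precision at the level of the 5p strands was limited. Of 102 tested rows with a mean of 50 to 200 CPM, the median standard error of the log2 fold change was 0.22 and the median size of the log2 fold change was 0.18. Within this range 2 rows, miR-148a-5p included, had a log2 fold change as high as that of miR-148a-5p, and 3 had one as large in either direction. The exact 95% counting interval of the unscaled level of miR-148a-5p was 99.6 to 161.4 and 102.1 to 154.2 CPM in the entinostat libraries and 55.3 to 90.7 and 55.4 to 103.2 CPM in the DMSO libraries. The interval of DMSO replicate 2 overlapped those of both entinostat libraries. Such intervals cover counting error only, since PCR copies are not independent molecules.

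The balance between the arms does not depend on library scaling, and in miR-148a it leaned further to the 5p strand with entinostat. The 5p strand took 7.22% (exact 95% interval 5.67 to 9.04%) and 7.62% (6.21 to 9.24%) of the miR-148a counts in the entinostat libraries. In the DMSO libraries it took 4.71% (3.67 to 5.95%) and 4.60% (3.35 to 6.15%). The interval of entinostat replicate 2 lay above those of both DMSO libraries, while that of entinostat replicate 1 overlapped them. The shares themselves did not overlap between the groups. Of 94 hairpins compared below, 19.1% had a higher 5p to 3p ratio in both entinostat libraries and 16% a lower one. The mean shares of miR-148a were 7.42 ± 0.283% with entinostat and 4.66 ± 0.0821% with DMSO (SD, n = 2), a difference of 2.77 percentage points. Put as a ratio, there were 12.8 and 12.1 reads of the 3p strand for each 5p read with entinostat and 20.2 and 20.7 with DMSO. The 3p strand remained the major one in every library. The arm ratio uses the same 5p counts as the fold change above, so the 2 are not independent.

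The other hairpins of the family did not share a clear lean to the 5p strand. In miR-148b the 5p strand took 0.832% (0.570 to 1.17%) and 0.9752% (0.731 to 1.27%) of the counts with entinostat. With DMSO it took 0.904% (0.685 to 1.17%) and 1.25% (0.924 to 1.66%), and the treatments overlapped. In miR-152 it took 3.65% (1.90 to 6.28%) and 2.23% (1.08 to 4.07%) with entinostat. With DMSO it took 1.89% (0.908 to 3.44%) in 1 library and 0 of 347 counts in the other, which allows a share of up to 0.865%. These miR-152 shares did not overlap between the treatments, but they rest on 22 reads of the 5p strand with entinostat and 10 with DMSO. The intervals of the first 3 libraries overlap. The exact interval of DMSO replicate 2, wider than the limit just given, was 0 to 1.06%. It overlapped that of DMSO replicate 1 and lay below those of both entinostat libraries. The 5p share was higher in miR-148a than in miR-148b in each of the 4 libraries.

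**Figure D3:**
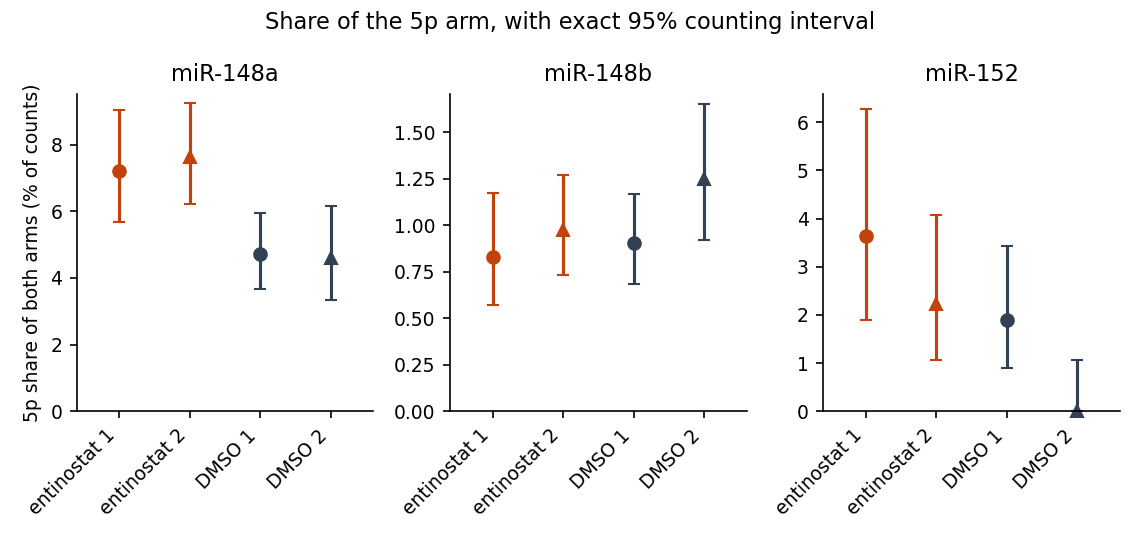
Share of the 5p strand among the counts of both strands (% of counts) for the 3 hairpins, in each library, with exact 95% counting intervals. The vertical scales differ between panels; in miR-148a both entinostat libraries (7.22 and 7.62%) lie above both DMSO libraries (4.71 and 4.60%), and in miR-148b the treatments overlap.

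Among other hairpins, the arm shift of miR-148a was at the high end but not alone there. Both arms were listed for 190 hairpins, and 94 of these had 40 or more counts of the minor arm over the 4 libraries. The log2 ratio of 5p to 3p, with 0.5 added to each count, was -3.67 and -3.59 for miR-148a with entinostat and -4.33 and -4.36 with DMSO, a shift of 0.71. This ranked 3 of 94, where the shifts had a median of 0.0140 and a standard deviation of 0.51. Just above it were let-7b (3.14, with no count of the 3p strand in 1 entinostat library) and let-7e (0.74), and just below it miR-26b (0.66) and miR-382 (0.65). In the let-7 hairpins, miR-26b and miR-382 the 5p strand is the major one, whereas in miR-148a it is the minor one. A shift toward a minor 5p strand was not particular to miR-148a. It was also seen, without overlap of the treatments, in miR-106b (0.65), miR-22 (0.56) and miR-1307 (0.48), at ranks 6, 7 and 8. The shift of miR-148b was -0.24, rank 69. By size in either direction the shift of miR-148a ranked 7. Larger ones toward the 3p strand were those of miR-550a (-1.43), miR-146b (-1.15), miR-105 (-1.04) and miR-195 (-0.81). In miR-550a, miR-146b and miR-105 the 5p strand is the major one, so these were larger shifts toward the minor strand than that of miR-148a. Both entinostat libraries had a higher 5p to 3p ratio than both DMSO libraries in 19.1% of the 94 hairpins, and a lower one in 16%. Over these hairpins the median shift toward the minor arm was 0.0141. The rank of miR-148a moved with the libraries used: it was 8 without entinostat replicate 2, 12 without DMSO replicate 1 and 5 without DMSO replicate 2, and it was 14 of 133 when minor arms with 10 or more counts were included.

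**Figure D4:**
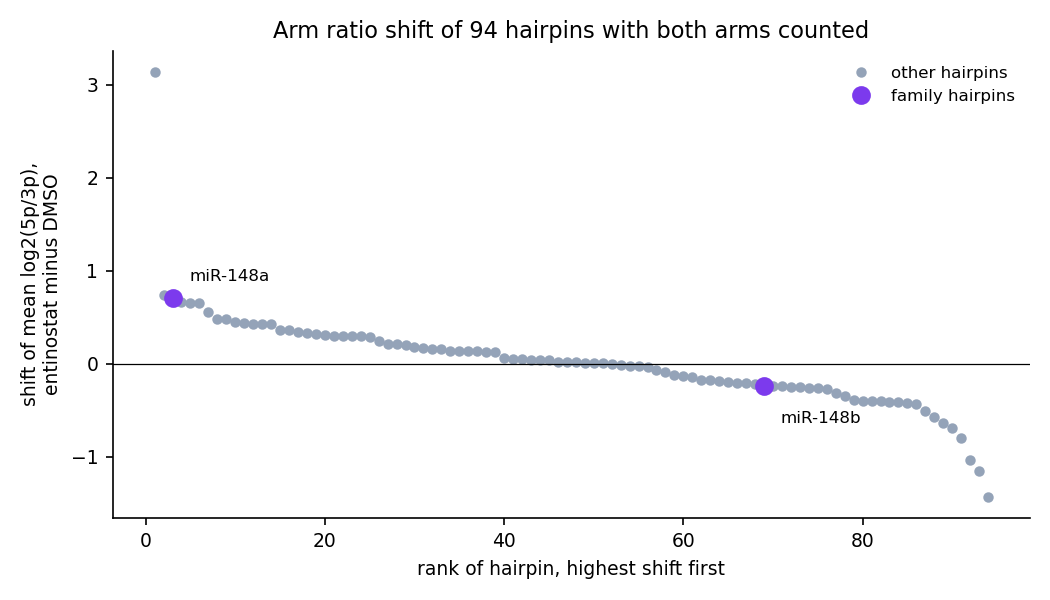
Difference of the mean log2 ratio of 5p to 3p counts, entinostat minus DMSO, for 94 hairpins ranked from the highest shift, with the family hairpins in purple. The hairpin miR-148a lies at rank 3 (0.71) and miR-148b at rank 69 (-0.24); miR-152 is not drawn because its minor arm had fewer than 40 counts.

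The pool of guides with the shared seed was nearly the same in size and make-up in both treatments. The 3p strands summed to 9257 and 9189 CPM with entinostat and 8694 and 8956 CPM with DMSO, or 9223 ± 47.5 and 8825 ± 185.6 CPM (SD, n = 2). Both entinostat libraries lay above both DMSO libraries, with a log2 difference of 0.06. With upper quartile factors, which move the median of all tested rows to 0.12, that difference was 0.18. Within the sum, miR-148b-3p made up 75.8% (exact 95% interval 74.6 to 77.0%) and 77.2% (76.2 to 78.2%) with entinostat and 76.9% (76.0 to 77.8%) and 75.4% (74.1 to 76.5%) with DMSO. The share of miR-148a-3p was 17.9% and 16.5% with entinostat and 16.7% and 17.7% with DMSO, and that of miR-152-3p was 6.30% and 6.28% with entinostat and 6.40% and 6.90% with DMSO. There were 4.24 and 4.68 reads of miR-148b-3p for each read of miR-148a-3p with entinostat and 4.62 and 4.25 with DMSO. The high and the low value of this ratio occurred in both treatments, and entinostat replicate 1 and DMSO replicate 2, the libraries of lowest depth, shared the low one. Among the 5p strands of the family, miR-148a-5p held 61.4% and 60.1% of the reads with entinostat and 50% and 47.3% with DMSO. All 6 members together took 0.939% and 0.947% of the counts with entinostat and 0.880% and 0.912% with DMSO.

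The tested miRNAs whose levels ran most like those of a member over the 4 libraries were found by the root mean square difference of log2 levels, each centred on its own mean, among rows with a mean of 50 CPM or more. For miR-148a-5p the nearest were miR-195-3p at 0.13, miR-15b-3p at 0.16 and miR-155-5p at 0.17, where the median over 293 rows was 0.40. In these counts miR-15b-3p was, like miR-148a-5p, the minor strand of its hairpin, whereas miR-195-3p was the major one. The levels of miR-195-3p were 141.7 and 125.2 CPM with entinostat and 64.2 and 85.5 CPM with DMSO. For miR-148a-3p the nearest were miR-30a-3p at 0.0279, miR-99a-5p at 0.0309 and miR-181a-2-3p at 0.0337, where the median was 0.14. For miR-148b-3p they were miR-379-3p at 0.0124, miR-425-5p at 0.0141 and miR-654-5p at 0.0202, where the median was 0.13. The lists of the 3 members shared no miRNA, and over 4 libraries such likeness describes the libraries only.

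Other miRNAs known to target DNA methyltransferases were followed from a list of 8 names, of which 7 were listed and 6 tested. The edgeR quasi-likelihood test with Benjamini-Hochberg adjustment called 0 of the 6 higher and 0 lower. Their log2 fold changes lay above 0 for 5 and below 0 for 1, with a median of 0.18. Of all 401 rows, 208 lay above 0 and 193 below. The level of miR-29a-3p, which targets DNMT3A and DNMT3B, was 833.2 ± 14.8 CPM with entinostat and 728.0 ± 41.1 CPM with DMSO (SD, n = 2), a log2 fold change of 0.20. The level of miR-101-3p was 42.0 ± 10.9 CPM with entinostat and 29.4 ± 3.75 CPM with DMSO (SD, n = 2). Its log2 fold change was 0.50 with a standard error of 0.34, from 18 to 27 counts a library. For miR-185-5p, which targets DNMT1, it was 704.3 ± 19.9 CPM with entinostat and 773.8 ± 16.6 CPM with DMSO (SD, n = 2), a log2 fold change of -0.13. The log2 fold change of miR-342-3p, another miRNA known to target DNMT1, was 0.17, but this rests on 1 library. Its level was 942.4 and 1404 CPM with entinostat and 1049 and 1047 CPM with DMSO. Entinostat replicate 1 thus lay below both DMSO libraries, and only entinostat replicate 2 lay above them. Without entinostat replicate 1 the log2 fold change of miR-342-3p was 0.42. The summed level of the list was 4841 and 4765 CPM with entinostat and 4398 and 4703 CPM with DMSO, with no overlap between the treatments. Of single tested rows, 40.6% likewise did not overlap in either direction. Without miR-342-3p the sums were 3898.5 and 3361.5 CPM with entinostat and 3349 and 3655 CPM with DMSO, which overlapped.

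A second list held miRNAs known to be silenced by DNA methylation in tumours, as has been described for miR-148a and miR-152. Of 19 names 13 were listed and 11 tested, and 0 were called higher and 0 lower. The log2 fold change was above 0 for 7 and below 0 for 4, with a median of 0.08, beside 208 above and 193 below among all 401 rows. The 4 below 0 were miR-203a-3p (-0.46), miR-137 (-0.21), miR-193a-5p (-0.12) and miR-127-3p (-0.07). The level of miR-200c-3p, an epithelial miRNA, was 44.2 ± 2.69 CPM with entinostat and 29.1 ± 5.83 CPM with DMSO (SD, n = 2). Its log2 fold change was 0.57 with a standard error of 0.31, from 14 to 35 counts a library. The level of miR-9-5p was 1296 ± 49.0 CPM with entinostat and 1144 ± 62.1 CPM with DMSO (SD, n = 2), a log2 fold change of 0.18. The level of miR-34c-5p, a p53 target, was 103.5 ± 4.65 CPM with entinostat and 78.3 ± 14.95 CPM with DMSO (SD, n = 2), a log2 fold change of 0.37. The level of miR-34b-3p was 75.5 and 131.8 CPM with entinostat and 76.0 and 92.6 CPM with DMSO, and the treatments overlapped. Its log2 fold change was 0.36. The summed level of this list was 7304 and 8793 CPM with entinostat and 8054 and 8189 CPM with DMSO, and the treatments overlapped. Most of this sum was miR-127-3p, at 5272 and 6745 CPM with entinostat and 6272 and 6334 CPM with DMSO. The overlap of the sum therefore mainly describes that miRNA and not the list as a whole.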

How the data were processed

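Small RNA of 4 libraries, 2 with entinostat and 2 with DMSO, was analysed. Per the labels' protocols, RNA came from TRIzol extraction, and New England Biolabs reagents were used to build small RNA libraries. The submitters' processing notes name bcl2fastq 2.18. Aligner, counter, miRNA annotation and build: not given in the sources used here. The authors deposited whole counts per mature miRNA name and a table of CPM, which equals count over column total times 1e+06 within 0.0001 in 100% of rows.

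Of 826 rows, filterByExpr (minimum count 10, minimum total 15) kept 401. Their counts were scaled by TMM and tested by the quasi-likelihood method in edgeR 4.0.16 (R 4.3.3), and treatment was its only term. Calls were made at a Benjamini-Hochberg adjusted p under 0.05. The common dispersion was 0.00648 (coefficient of variation 8.05%). The fit was tested on simulated data. No label says that replicates are separate cultures, so the spread behind p-values may be technical. Intervals of shares are Clopper-Pearson (exact, 95%), and the limit for a count of 0 is 3 counts. Sequences came from RefSeq and host genes from GENCODE release 29. Folds were predicted with ViennaRNA 2.7.2. Alternatives used DESeq2 1.42.0 and limma 3.58.1 (voom, and limma-trend on deposited CPM). Python 3.11.15 was used for the rest.

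The members, lists and comparisons were chosen with earlier results of these data known. Named miRNAs were the family, the 3 nearest profiles of each of 3 members, the hairpins ranked next to miR-148a, those sharing its seed, and up to 4 members of lowest p in each list. Also named were hairpins with other large arm shifts and list members that lay below 0 or made up most of a sum.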

Additional observations from a re-analysis of the deposited data

How the results depend on the processing

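The direction of the log2 fold change of miR-148a-5p was kept under all 17 alternatives run, from 0.73 to 0.90. It was 0.78 with the edgeR likelihood ratio test, whose call of it supports nothing, since miR-148a-5p was chosen on this contrast. The number of miRNAs called was 0 in the main fit, 4 with that test, and 0 to 6 when 1 library was left out, with the 6 arising without entinostat replicate 1 and not including the family. With 1 library left out the remaining one of its group was taken to vary like the other group. The replicate block called 0 miRNAs and changed no call, with miR-148a-5p at 0.78. Deviations of same-numbered libraries correlated at -0.12, and a crossed pairing, added after seeing the data, also called 0. Left-out libraries gave log2 fold changes of -0.00314 to 0.13 for miR-148a-3p, -0.395 to 0.0824 for miR-148b-5p and -0.0903 to 0.0527 for miR-152-3p. With upper quartile factors miR-152-3p turned to 0.0999 and the summed guides moved to 0.18, in a scaling that puts the median of all rows at 0.12. The log2 ratio of miR-148a-3p to miR-148b-3p, entinostat minus DMSO, was -0.00834 and ran from -0.0787 to 0.0620 with 1 library left out. The difference in the 5p share of miR-148a stayed between 2.57 and 2.97 percentage points. Its rank ran from 4 to 12 with 1 library left out and was 14 with minor arms of 10 or more counts. The causes were not tested. Depth of 547875 to 938559 counts limits the 5p strands most, which rest on 0 to 95 counts a library.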
